A study of Arabidopsis thaliana with 11 samples.

Results

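The genes described here are 37 genes of DNA replication and S phase in Arabidopsis thaliana: the helicase subunits MCM2 to MCM7 and the related MCM8, MCM10 and ETG1, the origin recognition genes ORC1A, ORC1B and ORC2 to ORC6, the licensing and firing genes CDC6A, CDT1A, CDT1B and CDC45, the sliding clamps PCNA1 and PCNA2, DNA polymerase genes, topoisomerase II, ribonucleotide reductase, the chromatin assembly genes FAS1 and FAS2, and the E2F, DP and RBR regulators. They were listed by gene identifier and not by a cut on a measured value, but with earlier results of these data known. All 37 were among the 20971 genes of the expression table. Expression was measured by RNA-seq in inflorescences of ecotype Landsberg. All plants carried the transgene pAP1:AP1-GR in the ap1-1 cal-1 double mutant. In this line the AP1 promoter drives the floral regulator APETALA1 fused to the glucocorticoid receptor, and daily dexamethasone starts synchronous flower formation in inflorescences that otherwise keep producing meristems. Tissue was collected before treatment (day 0, 3 libraries) and after 2 days (2 libraries), 4 days (3 libraries) and 8 days (3 libraries) of dexamethasone, each library coming from a pool of inflorescences. There were no untreated plants after day 0, so treatment time, plant age and flower stage cannot be told apart.

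Before a cell copies its DNA, the origin recognition complex, CDC6 and CDT1 load the MCM2 to MCM7 helicase onto origins, and CDC45 helps to turn the loaded helicase into an active one. PCNA then holds the polymerases on the template, ribonucleotide reductase supplies deoxynucleotides, and chromatin assembly factor 1 (CAF-1) deposits histones on the new DNA. In plants as in animals, E2F factors with a DP partner control many of these genes and are held in check by the retinoblastoma protein, RBR1 in Arabidopsis. Replication genes are known for high expression in meristems and young organ primordia, where cells divide often.

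E2F factors recognize a short word, of which 4 forms were looked for here. The region from 250 bases before to 50 bases after each annotated gene start was searched for these forms, TTTCCCGC, TTTCGCGC, TTTGCCGC and TTTGGCGC, on both strands, in the TAIR10.1 reference of ecotype Col-0. At least 1 form was present in 15 of the 37 genes (40.5%), compared with 483 of 27443 protein-coding genes (1.76%) and 399 of the 20153 table genes that could be placed (1.98%). The windows of 30 bases below show the word near the starts of helicase, origin, nucleotide supply, chromatin assembly and regulator genes, read along the strand of the gene, with the word in capitals. They are printed because the same letters recur in genes of different roles.
MCM2: tggcgccaataTTTCCCGCctaatcgacga
MCM5: cggcccatcagTTTCCCGCcacattgttcc
MCM6: tatactttttaGCGGGAAAatgttagagga
ORC2: aagaaaaacgcGCGGGAAAattgagagact
ORC3: gggtcacgaatTTTCCCGCcaaaaagagcg
RNR1: cctagaagctgGCGGGAAAatcccaaaact
FAS2: ggagactactaTTTCGCGCccaaatgatcc
RBR1: caaatatgtaaTTTCCCGCgtgacctaaac

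In MCM6, ORC2 and RNR1 the word lies on the opposite strand and so reads GCGGGAAA. The printed windows are at chr1:16970189-16970218 (plus strand) for MCM2, chr2:3527501-3527530 (minus strand) for MCM5, chr5:18010695-18010724 (minus) for MCM6, chr2:15758581-15758610 (plus) for ORC2, chr5:5474305-5474334 (plus) for ORC3, chr2:9293260-9293289 (plus) for RNR1, chr5:25833144-25833173 (plus) for FAS2 and chr3:3919417-3919446 (minus) for RBR1. The 15 genes held 17 matches, none overlapping another, and 15 of the 17 began at most 100 bases from the gene start. TTTCCCGC was found in 12 genes, TTTGGCGC in 4, TTTCGCGC in FAS2 alone and TTTGCCGC in none. POLA1 and FAS1 held 2 matches each. The other genes with a match were MCM3, MCM4, MCM8, ORC1A and ORC4. A match is a description of the letters and not a measured binding site, and other forms of the word were not searched.

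**Figure D1:**
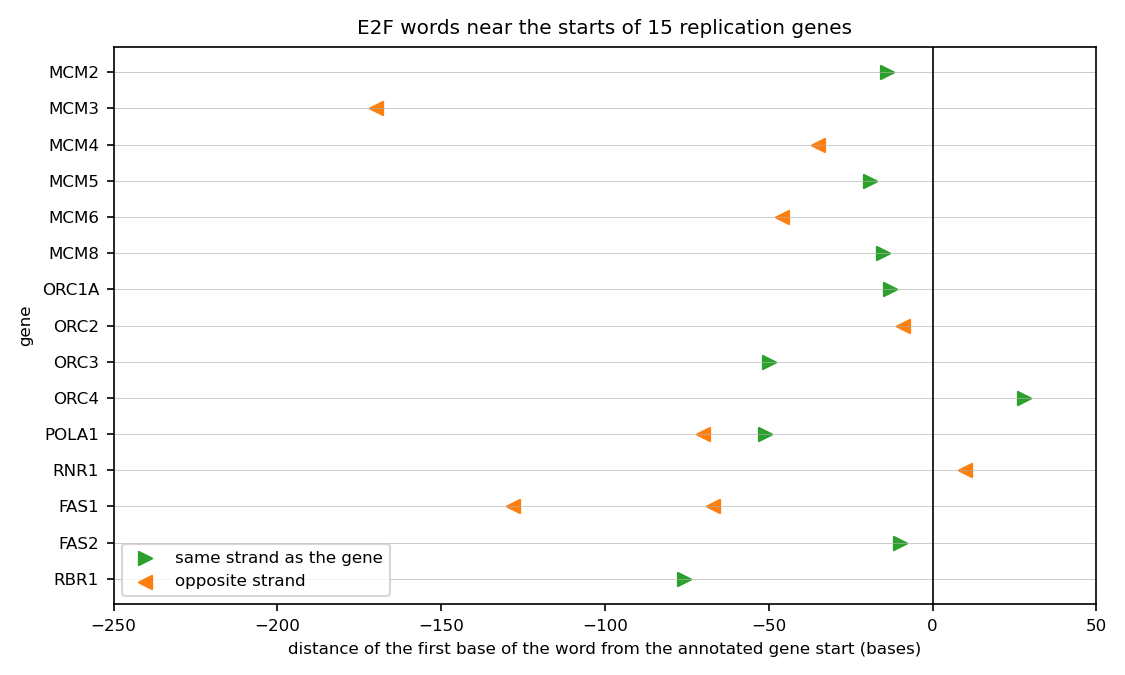
Position of E2F words near the starts of the 15 replication genes that hold one. The horizontal axis gives the distance of the first base of the word from the annotated gene start in bases, with upstream positions negative, and arrowheads give the strand. All but 2 of the 17 words begin at most 100 bases from the start, and the exceptions lie 170 bases upstream of MCM3 and 128 bases upstream of FAS1.

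Values are FPKM, sequenced fragments scaled by transcript length and library size, and the columns share a common distribution, so every change is relative to the other genes of the same library. Differences are given as log2(FPKM + 1) and understate the change of genes near 1 FPKM. A gene was called fallen or risen when limma gave a Benjamini-Hochberg adjusted p under 0.05 over the 19278 genes tested and the difference was at least 2-fold. All 37 replication genes passed the filter on low values. The spread between libraries (pooled SD over all tested genes on the log2 scale) was widest at 0.338 on day 8 and lay between 0.159 and 0.23 at the other times. For the 37 genes it was 0.239 on day 8 and between 0.0901 and 0.15 before. The floral genes LFY, AP3, PI, AG and SEP3 and the AP1 gene rose and the meristem gene STM fell in day 8 against day 0. AP1 values may come from the transgene, the endogenous gene or both. The 3 root marker genes listed as a check were not analysed here because the table has no row for them.

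Most of the replication genes were near their starting level on day 2, somewhat lower on day 4 and far lower on day 8. Day 2 means were 81.8% to 114% of day 0 (median 100.3%), day 4 means were 70.3% to 114.5% (median 87.1%), and day 8 means were 8.46% to 130% (median 31.8%). In the F test across the 4 days, 28 of the 37 genes changed, compared with 32.8% of all genes tested. The same number, 28, fell in day 8 against day 0 and 0 rose, where 15.2% of all genes fell and 14.2% rose. At an adjusted p under 0.05 of any size, 36 of the 37 were lower and 1, E2FB, was higher, where 45% of all genes were lower and 29% higher. The median difference was -1.42 over the 37 genes and -0.19 over all genes tested. Every day 8 library lay below all 8 earlier libraries in 34 of the 37 genes, compared with 39.1% of all genes tested. Because whole inflorescences were sequenced, fewer dividing cells and less RNA per cell cannot be told apart.

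**Figure D2:**
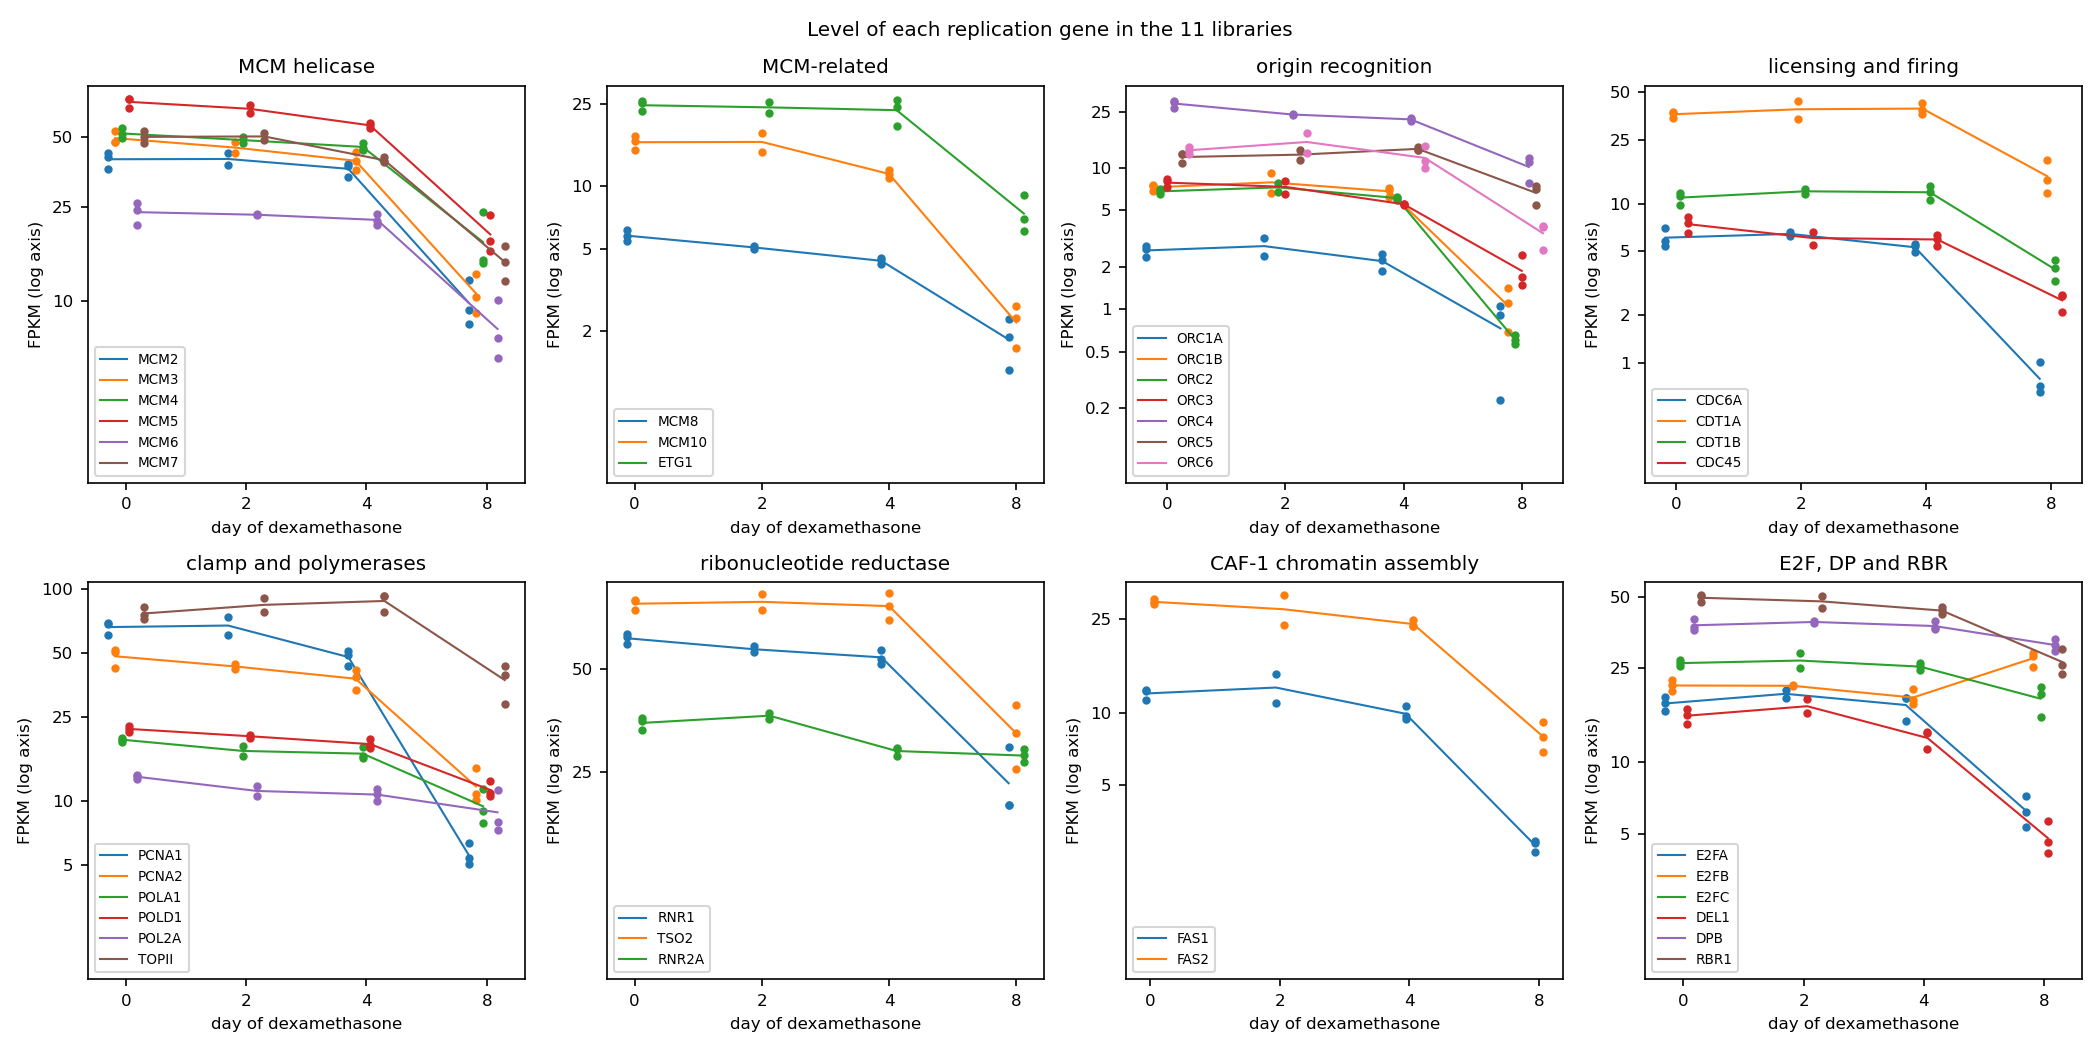
FPKM on a log axis of each of the 37 replication genes in the 11 libraries, by role, with days 0, 2, 4 and 8 at equal spacing. Points are libraries and lines join the means of each day. Most lines change little to day 4, many ending slightly lower there, and drop at day 8. E2FB alone ends above its earlier level, with 25.2 to 29 FPKM on day 8.

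The sliding clamp PCNA1 (AT1G07370, chromosome 1, 2263037 to 2264553) had the largest fall of the 37. It had 60.6, 68.6 and 68.8 FPKM on day 0, 73.4 and 60.8 FPKM on day 2, 48.5, 43.4 and 51.2 FPKM on day 4 and 5.38, 6.33 and 5.04 FPKM on day 8. The day 4 libraries were all below the earlier ones, and the day 8 libraries were far below any other. Its difference in day 8 against day 0 was -3.35 ± 0.11 (SE, limma adjusted p = 2.72e-09), and its day 8 mean was 8.46% of day 0. The other clamp gene, PCNA2 (AT2G29570, chromosome 2, 12649906 to 12651753), had 14.3, 10.8 and 10.1 FPKM on day 8 and 42.4, 51.6 and 50.4 FPKM on day 0. PCNA2 fell by 1.96 ± 0.13 on the log2 scale (limma adjusted p = 2.62e-07). Every day 8 library was below all earlier ones in both genes, as in 39.1% of all genes tested.

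All 6 subunits of the MCM2 to MCM7 helicase, which unwinds DNA at the fork, fell in day 8 against day 0, by 1.52 (MCM4) to 2.11 (MCM3) on the log2 scale. MCM3 had 13, 10.4 and 8.87 FPKM on day 8 and 47.3, 53.0 and 47.6 FPKM on day 0. MCM5 had 23.3, 18.0 and 16.3 FPKM on day 8 and 72.4, 72.2 and 66.5 FPKM on day 0. MCM2 had 12.3, 9.13 and 7.97 FPKM on day 8 and 36.4, 42.8 and 41.0 FPKM on day 0. In these 3 genes every day 8 library was below all earlier ones, as in 39.1% of all genes tested. Day 8 replicate 1 was the highest of its group in all 3 genes. Among the other subunits, the log2 difference was -1.56 ± 0.16 for MCM6 and -1.71 ± 0.10 for MCM7, known as PROLIFERA. Day 8 means of the 6 subunits were 21.8% to 34.4% of day 0. The subunits kept a similar spread of levels: MCM5 had the highest mean FPKM and MCM6 the lowest on every day, and the ratio between them was 2.95 before treatment, 2.83 and 2.53 after 2 and 4 days, and 2.53 on day 8.

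MCM10, a replication initiation factor that is not a subunit of the MCM2 to MCM7 ring, fell by 2.44 ± 0.13 on the log2 scale (limma adjusted p = 6.72e-08). It had 2.64, 1.65 and 2.31 FPKM on day 8 and 15, 17.5 and 16.4 FPKM on day 0, with 11 to 11.9 FPKM on day 4. ETG1, an MCM-binding protein first described as an E2F target gene, had 9.06, 6.09 and 6.98 FPKM on day 8 and 23.0, 25.7 and 25.1 FPKM on day 0, and fell by 1.62 ± 0.14 on the log2 scale. MCM8, an MCM relative known for its part in meiotic recombination, fell by 1.28 ± 0.14 and was low throughout, with 1.30 to 2.29 FPKM on day 8 and 5.43 to 6.13 FPKM on day 0. The day 8 values of all 3 genes lay below every earlier library, as did those of 39.1% of all genes tested.

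Of the 7 origin recognition genes, whose products mark the sites where replication can start, 6 fell. ORC2 had 0.57, 0.612 and 0.664 FPKM on day 8 and 7.07, 6.57 and 6.84 FPKM on day 0, a day 8 mean of 9.01% of day 0 (log2 difference -2.28 ± 0.10, limma adjusted p = 2.54e-08). ORC1B had 0.687, 1.41 and 1.11 FPKM on day 8 and 7.61, 7.44 and 6.82 FPKM on day 0 (-2.02 ± 0.16). These genes were thus close to 1 FPKM on day 8, where the added 1 compresses the difference. ORC3 (-1.64 ± 0.14), ORC4 (-1.42 ± 0.12) and ORC6 (-1.70 ± 0.17) fell as well, with day 8 means of 23.8%, 35.6% and 25.9% of day 0. ORC1A fell by 1.09 ± 0.20, in libraries that were low and uneven: 1.06, 0.909 and 0.228 FPKM on day 8 and 2.34, 2.69 and 2.80 FPKM on day 0. Without day 8 replicate 3 its log2 difference was -0.86 and it no longer reached 2-fold. ORC5 (-0.76 ± 0.12, limma adjusted p = 0.000139) stayed under the 2-fold minimum, with 7.13, 5.46 and 7.40 FPKM on day 8 and 10.8, 12.5 and 12.5 FPKM on day 0. ORC5 was also the single gene of the 37 whose day 4 libraries, at 13.3 to 14.1 FPKM, were all above those of day 0. The share of all genes that separate upward in this way was not computed, so this does not set ORC5 apart.

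All 4 licensing and firing genes fell. CDC6A, which joins the origin recognition complex to load the helicase, had 0.655, 0.713 and 1.01 FPKM on day 8 and 5.40, 5.84 and 7.07 FPKM on day 0 (-1.98 ± 0.13, limma adjusted p = 2.29e-07). CDT1A, the helicase loader with the higher level of the pair, had 14.1, 18.8 and 11.6 FPKM on day 8 and 34.5, 37.2 and 37.3 FPKM on day 0 (-1.26 ± 0.15). CDT1B had 4.40, 3.26 and 3.96 FPKM on day 8 and 9.84, 11.2 and 11.6 FPKM on day 0 (-1.29 ± 0.12). CDC45, part of the active helicase, fell by 1.28 ± 0.13. In all 4 every day 8 library was below all earlier ones, as in 39.1% of all genes tested.

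The differences of the 3 polymerase genes were smaller in value than those of the clamps. POLA1 (AT5G67100, also named ICU2), POLD1 (AT5G63960, described in the table only as a DNA-directed DNA polymerase) and POL2A (AT1G08260, also named TIL1) had differences of -0.98 ± 0.12, -0.90 ± 0.08 and -0.53 ± 0.13 in day 8 against day 0, each with a limma adjusted p of at most 0.00407 but none reaching 2-fold. POLA1 had 11.5, 7.87 and 9.03 FPKM on day 8 and 19.1, 19.8 and 19.5 FPKM on day 0. POL2A had 11.3, 7.29 and 8.02 FPKM on day 8 and 13.3, 12.7 and 13.1 FPKM on day 0, and its day 8 replicate 1 lay within the range of the earlier libraries. TOPII, the topoisomerase that untangles replicated DNA, had 43.5, 28.8 and 39.2 FPKM on day 8 and 74.9, 82.1 and 72.4 FPKM on day 0, and fell by 1.04 ± 0.14. Its highest mean was on day 4, with 92.5, 92.2 and 78.1 FPKM. TOPII lost the 2-fold minimum without day 8 replicate 2 (-0.87) and without day 0 replicate 2 (-0.99). POLA1 passed it without day 8 replicate 1 (-1.12).

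Ribonucleotide reductase is built of large and small subunits, and its genes did not move alike. RNR1, the large subunit, had 29.5, 19.93 and 19.99 FPKM on day 8 and 63.2, 61.9 and 59.3 FPKM on day 0 (-1.39 ± 0.13). TSO2, a small subunit, had 39.2, 32.5 and 25.4 FPKM on day 8 and 74.3, 79.4 and 79.0 FPKM on day 0 (-1.25 ± 0.13). RNR2A, the other small subunit, had 27.9, 29.1 and 26.6 FPKM on day 8 and 35.1, 33.2 and 36.0 FPKM on day 0. Its difference was -0.31 ± 0.07 and its day 8 libraries overlapped those of day 4, which had 27.9, 29.3 and 29.1 FPKM. RNR2A was thus lower by day 4, though under 2-fold, and was not shown to differ after it (day 8 against day 4, -0.04 ± 0.07, limma adjusted p = 0.576).

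FAS1 and FAS2, the large and middle subunits of CAF-1, fell by nearly equal amounts, 1.79 ± 0.11 and 1.76 ± 0.12 on the log2 scale. FAS1 had 2.61, 2.91 and 2.87 FPKM on day 8 and 11.4, 12.6 and 12.4 FPKM on day 0. FAS2 had 9.17, 7.94 and 6.92 FPKM on day 8 and 29.3, 28.8 and 30.1 FPKM on day 0. In both genes the day 8 libraries were below all others, which held for 39.1% of all genes tested.

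**Figure D3:**
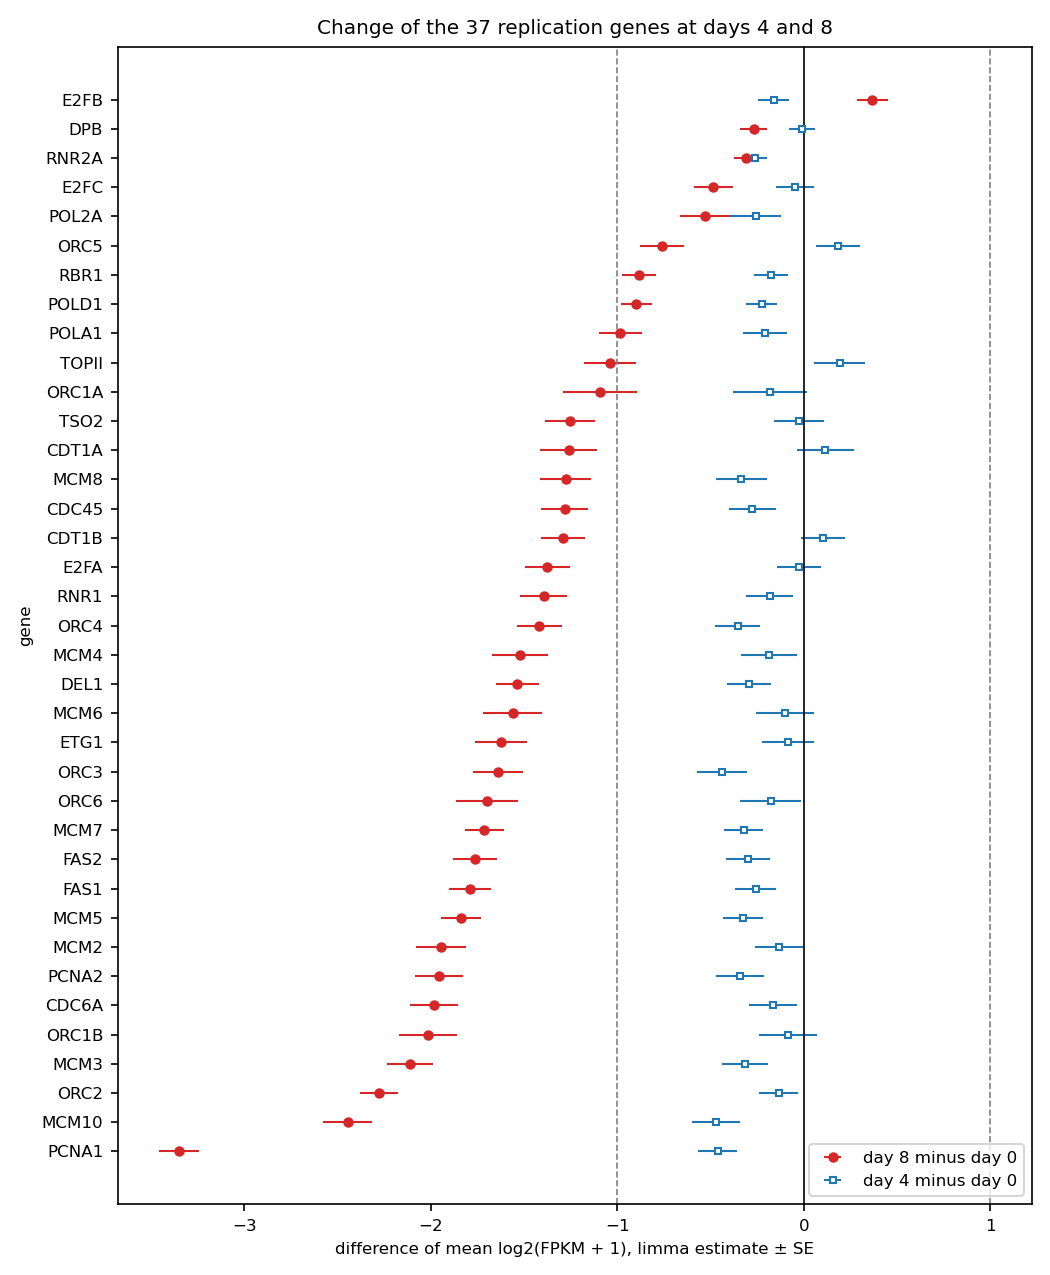
Log2 difference of mean (FPKM + 1) with its standard error for each of the 37 genes, day 8 minus day 0 as filled circles and day 4 minus day 0 as open squares, ordered by the day 8 value. Dashed lines mark 2-fold. At day 8, 28 genes lie past the lower line, from -1.04 (TOPII) to -3.35 (PCNA1), E2FB alone lies above 0 at 0.37, and no day 4 value passes a line.

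Of the 6 regulators of the E2F network, 2 were called. E2FA, an activating E2F factor, fell by 1.38 ± 0.12 and had 6.15, 7.21 and 5.34 FPKM on day 8 and 17.8, 16.5 and 18.8 FPKM on day 0. DEL1, an atypical E2F factor known to hold back endoreduplication, fell by 1.54 ± 0.12 and had 5.63, 4.60 and 4.13 FPKM on day 8 and 14.5, 15.9 and 16.7 FPKM on day 0. E2FB, the other activating factor, went the opposite way in value: it had 29, 28.2 and 25.2 FPKM on day 8 and 22.2, 19.9 and 21.1 FPKM on day 0. Its difference of 0.37 ± 0.08 (limma adjusted p = 0.00212) was under 2-fold, and all 3 day 8 libraries were above all 8 earlier ones. The share of all genes that separate upward in this way was not computed. In day 8 against day 0, 29% of all genes were higher at an adjusted p under 0.05 of any size. E2FC, described as a repressor, was lower by 0.49 ± 0.10 and the partner DPB by 0.27 ± 0.07, both under 2-fold. RBR1, which binds and restrains E2F factors, had 30.2, 25.6 and 23.7 FPKM on day 8 and 50.4, 50.6 and 47.3 FPKM on day 0 (-0.88 ± 0.09).

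Genes with related products were compared as ratios within each library, which largely removes the scale of the library. There were 5 such pairs, tested with a two-sided exact permutation test of the log2 ratio. It set the 3 day 8 libraries against the 8 earlier ones, for which the smallest p is 0.0121. The log2 ratios and their differences were taken after adding 1 to each FPKM, while the printed ranges are ratios of FPKM itself. The PCNA1 to PCNA2 ratio of FPKM was 0.376 to 0.587 on day 8 and 1.24 to 1.76 earlier, a log2 difference of -1.39 (exact p = 0.0121, adjusted over 5 pairs 0.0152). PCNA1 was thus above PCNA2 in every earlier library and below it in every day 8 library. The E2FA to E2FB ratio was 0.212 to 0.256 on day 8 and 0.803 to 1.02 earlier, a log2 difference of -1.83 (exact test, adjusted p = 0.0152). The TSO2 to RNR2A ratio was 0.955 to 1.41 on day 8 and 2.00 to 2.86 earlier, a log2 difference of -1.02 (exact test, adjusted p = 0.0152). These 3 ratios did not overlap between day 8 and the earlier days. How often other gene pairs separate in this way was not computed. Of all genes tested, 39.1% had every day 8 library below all earlier ones. With any 1 day 8 library left out, the adjusted p of all 3 was 0.0556, since 2 against 8 libraries cannot give an exact p below 0.0444.

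The CDT1A to CDT1B ratio, at 2.94 to 5.78 on day 8 and 2.73 to 3.86 earlier, was not shown to differ (log2 difference 0.04, exact test, adjusted p = 0.752). The ORC1A to ORC1B ratio was 0.206 to 1.55 on day 8 and 0.297 to 0.411 earlier, so it overlapped in FPKM although the log2(FPKM + 1) ratio differed by 0.97 (exact test, adjusted p = 0.0152). With a pseudocount of 0.1 that difference was 0.88 (exact test, adjusted p = 0.136). Both genes were near 1 FPKM on day 8.

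**Figure D4:**
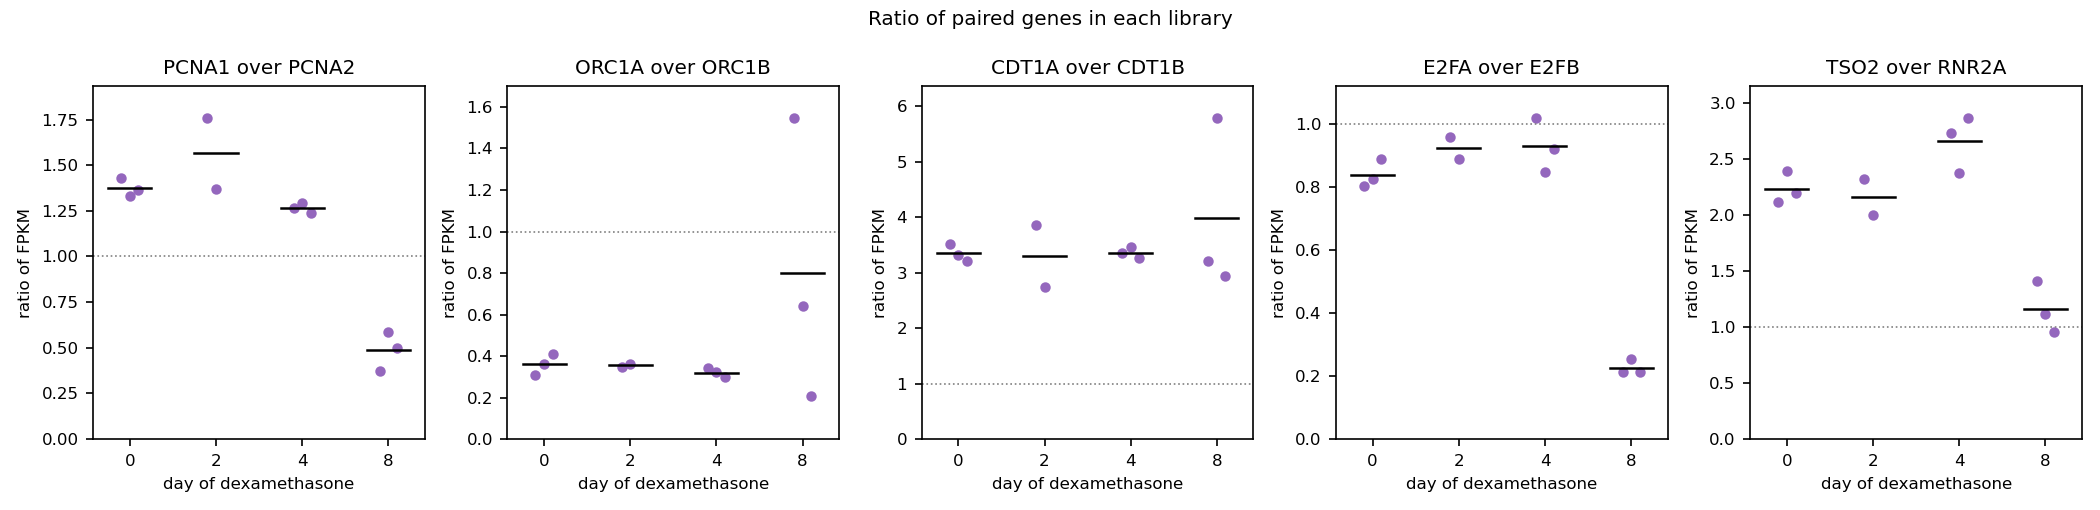
Ratio of FPKM between paired genes in each of the 11 libraries, by day of dexamethasone at equal spacing. Points are libraries, black bars are means and the dotted line marks equal levels. The PCNA1 to PCNA2, E2FA to E2FB and TSO2 to RNR2A ratios are lower on day 8 (means 0.488, 0.227 and 1.16) than in any earlier library, while the ORC1A to ORC1B and CDT1A to CDT1B ratios overlap.

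The largest step of most of the genes was between days 4 and 8. In day 2 against day 0, 0 of the 37 genes were called, where 0.0934% of all genes fell and 0.244% rose. An unadjusted limma p under 0.05 was found for 0 of the 37 and for 11.3% of all genes. In day 4 against day 2, 0 were called, where 0.0674% of all genes fell and 0.301% rose, and 7 of the 37 were lower at an unadjusted p under 0.05, compared with 6.5% of all genes. In day 8 against day 4, 26 fell and 0 rose, where 11% of all genes fell and 12.5% rose. In day 8 against day 2, 28 fell and 0 rose, where 13.8% fell and 13.8% rose. These comparisons share libraries and are not independent of each other. At an adjusted p under 0.05 of any size, 34 of the 37 were lower in day 8 against day 4 and 1, E2FB, was higher. Of the 19278 genes tested, 8379 were lower and 5126 higher. POL2A (-0.27 ± 0.13, limma adjusted p = 0.0923) and RNR2A were not shown to differ in this step. Among the 28 genes that fell in day 8 against day 0, and so were selected for that fall, a median of 13.5% of the log2 difference was present on day 4.

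Day 4 nevertheless held smaller differences, mostly in the same direction as day 8. In value, 33 of the 37 were lower in day 4 against day 0, compared with 9972 of the 19278 genes tested. The 4 higher ones were CDT1A, CDT1B, ORC5 and TOPII, all lower on day 8. E2FB was lower in value on day 4 (-0.16) and higher on day 8. In day 4 against day 0, 0 genes were called, where 0.617% of all genes fell and 1.59% rose, but 14 of the 37 were lower at an unadjusted limma p under 0.05 and 0 were higher, compared with 12.3% of all genes lower. Of these, 3 had an adjusted p under 0.05 without reaching 2-fold, compared with 4.12% of all genes: MCM10 (-0.47 ± 0.13, limma adjusted p = 0.0481), PCNA1 (-0.46 ± 0.11, limma adjusted p = 0.0217) and RNR2A (-0.26 ± 0.07, limma adjusted p = 0.0337). When the day 8 libraries, which had the widest spread, were left out of the fit, 16 of the 37 were lower at an adjusted p under 0.05 and 0 were higher, compared with 12.2% lower and 11.5% higher of 18531 genes. The 16 were MCM3, MCM4, MCM5, MCM7, MCM8, MCM10, ORC3, ORC4, PCNA1, PCNA2, POLD1, POL2A, RNR1, RNR2A, FAS2 and DEL1. In 21 of the 37 genes every day 4 library was below every day 0 library, compared with 22.9% of all genes tested. For day 4 against day 2 the same fit gave 5 lower genes, MCM7, MCM10, PCNA1, RNR2A and DEL1, compared with 2.64% of all genes.

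Other genes of the pathway, not among the 37, were mostly lower on day 8 too. In day 8 against day 0, 11497 of the 19278 genes tested were lower in value, 15.2% fell and 14.2% rose, with a median of -0.19. Of 43 further replication genes, such as those for the GINS complex, the clamp loader, replication protein A, the ligase and the remaining polymerase subunits, 42 were lower in value, 19 fell in day 8 against day 0 and 0 rose, with a median difference of -0.93. The 3 with the largest falls were AT3G52630, described in the table as a nucleic acid-binding protein with an OB-fold (-3.41), the dUTPase gene DUT1, which keeps uracil out of DNA (-3.26), and ATXR6, a histone H3 lysine methyltransferase that acts during replication (-2.62). DUT1 had 11, 9.70 and 6.09 FPKM on day 8 and 86.8, 94.1 and 94.0 FPKM on day 0. ATXR6 had 0.678, 1.08 and 1.17 FPKM on day 8 and 11.4, 11.4 and 10.4 FPKM on day 0. In day 2 against day 0, 0 of the 43 were called and 1 had an unadjusted limma p under 0.05, compared with 11.3% of all genes.

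The 5 genes of histone H3.1, the form deposited by CAF-1 on new DNA, had a median difference of -0.72 in day 8 against day 0. AT5G10390 (-1.59) and AT5G65360 (-1.19) fell and the other 3 were not called, where 15.2% of all genes fell. With the columns rescaled by median ratios, AT5G65360 was at -0.98 and lost its call. These genes are near-identical copies, so how reads were divided among them is uncertain.

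Of 17 mitotic genes, 13 fell in day 8 against day 0, where 15.2% of all genes fell. The median difference of the 17 was -1.28, led by the cyclin CYCA1;1 (-2.52), the Aurora kinase AUR2 (-1.86) and PLE, a microtubule-associated protein of cytokinesis (-1.76). The early days differed in value from those of the replication genes. In day 2 against day 0 all 17 mitotic genes were higher in value (median 0.21), compared with 50.8% of all genes, and 5 were higher at an unadjusted limma p under 0.05, compared with 5.35% of all genes, with 0 called. In the same comparison the 37 replication genes split into 19 higher and 18 lower (median 0.00). A difference between the 2 lists was not tested. E2F words were found near the starts of 14 of the 43 further replication genes (32.6%) and 0 of the 17 mitotic genes, of which 2 (11.8%) held a word in a wider window from 500 bases before to 100 after the start.

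**Figure D5:**
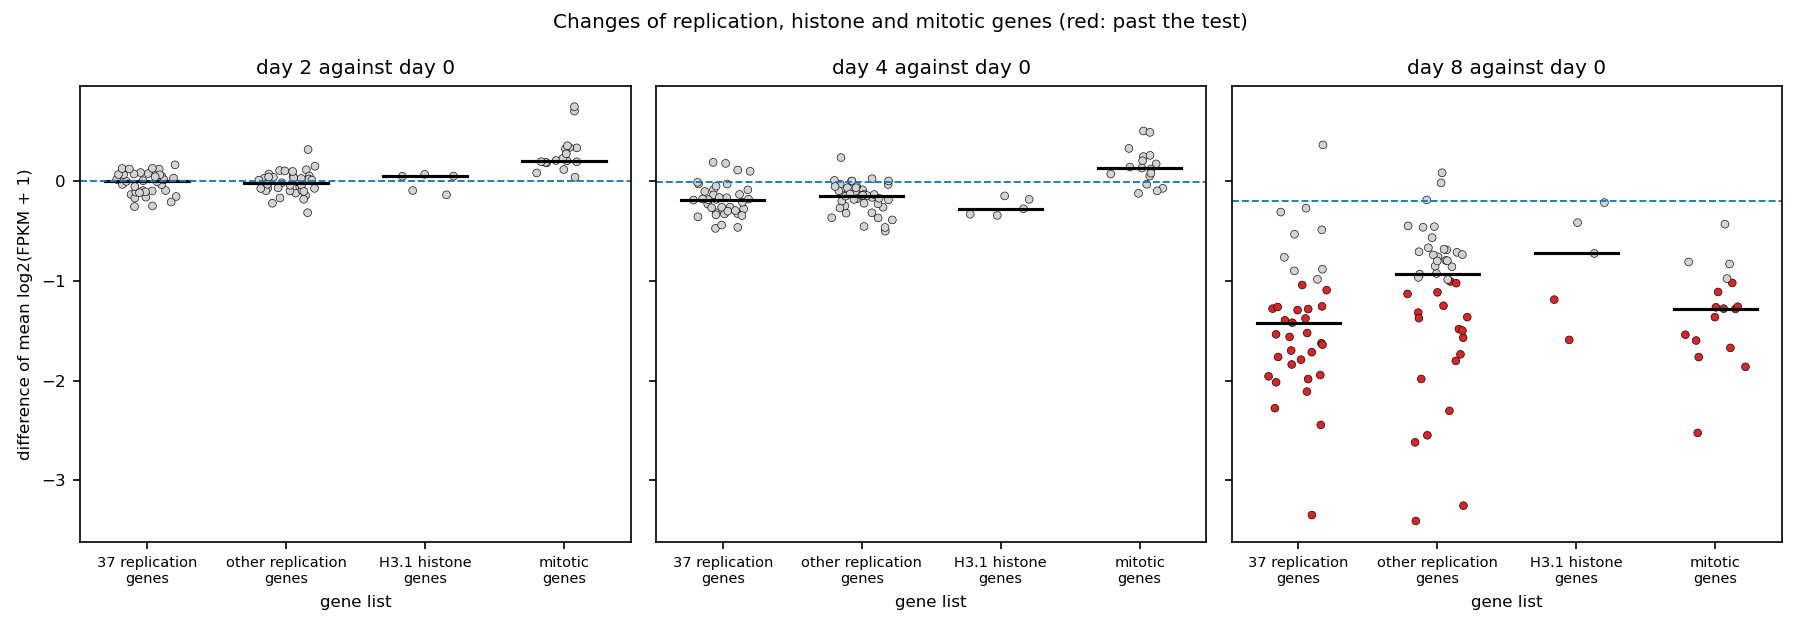
Log2 difference of mean (FPKM + 1) against day 0 on days 2, 4 and 8 for the 37 replication genes, 43 other replication genes, 5 H3.1 histone genes and 17 mitotic genes. Points are genes, red where called at an adjusted p under 0.05 and at least 2-fold, black bars are list medians and the dashed line is the median of all genes tested. No gene of these lists is called before day 8, when the list medians are -1.42, -0.93, -0.72 and -1.28.

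Genes with and without an E2F word overlapped in their changes. Of the 15 genes with a word, 13 fell, with differences of -0.88 (RBR1) to -2.28 (ORC2) and a median of -1.56. Of the 22 without a word, 15 fell, with a median of -1.29 and a range that held both extremes, PCNA1 (-3.35) and E2FB (0.37). With the search widened to 500 bases before and 100 after the start, a window chosen after seeing the data, 19 of the 37 genes held a word (51.4%), compared with 3.105% of protein-coding genes. The telo box word AAACCCTA, known from plant ribosomal and replication gene promoters, was present in 4 of the 37 (10.8%) and in 6.22% of protein-coding genes.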

How the data were processed

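Per the submitters' processing notes and the methods, alignment was done by STAR on TAIR10 and quantification by RSEM version 1.2.22, and the authors deposited FPKM values of 20971 genes in 11 libraries. The deposited columns share a common distribution (sorted columns differed by a median of 0.0798%), so read depth is unknown and counting error cannot be given. Deposited day means, and p-values and FDR values by the authors across the days, were not used.

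Values were transformed as log2(FPKM + 1). The filter kept 19278 genes that reached 1 FPKM in 2 or more libraries, and they were fitted with limma (version 3.58.1, under R 4.3.3), with the 4 days as groups, a variance trend and Benjamini-Hochberg adjustment. A gene was called at an adjusted p under 0.05 and at least 2-fold. The code was tested on simulated data. The limma p-values weigh differences of day means against the spread between libraries, with 1 spread per gene shared over the 4 days. Because the spread was widest on day 8, the SE of day 8 differences can be too small. Exact tests used scipy version 1.17.1. Alternatives covered pseudocounts, filters, rescaling, spread, replicate blocks and left-out libraries.

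The genes, lists and tests were chosen with earlier results of these data known. All 37 genes are accounted for, and of the other lists at most the 3 most changed called genes in each direction are named. Gene starts and sequence came from the RefSeq annotation and genome of TAIR10.1, used together, and no coordinate was taken from the authors' files. Promoter tables and protein sequences were not used here. The sequence of 1 promoter window is not reported here.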

Additional observations from a re-analysis of the deposited data

How the results depend on the processing

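The number of the 37 genes called ranged over the alternatives from 27 to 30 in the F test, 26 to 29 in day 8 against day 0, 24 to 29 in day 8 against day 4 and 24 to 28 in day 8 against day 2, and was 0 in every alternative of the 3 comparisons among days 0, 2 and 4. Rescaling the columns by median ratios moved the all-gene median of day 8 against day 0 to -0.00, against -0.19 as deposited, and the median of the 37 genes to -1.23. The all-gene shift follows largely from how the rescaling is built and is not a finding. In that rescaling RNR2A (-0.11, limma adjusted p = 0.213) and DPB (-0.07, limma adjusted p = 0.355) were not shown to differ, E2FB was at 0.57, ORC1A (-0.98) and TOPII (-0.84) lost the 2-fold minimum, and 1 H3.1 gene was called instead of 2, AT5G65360 (-0.98) losing its call. POLA1 reached 2-fold with pseudocounts of 0.1 (-1.05) and 1e-06 (-1.06). ORC1A did not pass a filter of at least 5 FPKM in at least 2 libraries, which gave no value for it. No value changed direction past its test.

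The ORC1A to ORC1B ratio with a pseudocount of 0.1 differed by 0.88 (exact test, adjusted p = 0.136). Against day 0 alone, where 3 against 3 libraries cannot give a p below 0.1, the log2 ratio differences were -1.39 for PCNA1 to PCNA2, 0.92 for ORC1A to ORC1B, -1.74 for E2FA to E2FB and -0.95 for TSO2 to RNR2A (exact test, adjusted p = 0.125 each). Leaving out each library in turn gave -1.52 to -1.23 for PCNA1 to PCNA2, 0.68 to 1.22 for ORC1A to ORC1B, -1.90 to -1.78 for E2FA to E2FB and -1.17 to -0.90 for TSO2 to RNR2A. With any 1 of the day 8 libraries left out, the adjusted p of these 4 ratios was 0.0556, which the design fixes: 2 against 8 libraries cannot give an exact p below 0.0444.

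Replicate numbers were not treated as pairs. Deviations of same-numbered libraries from their day means correlated at -0.251 to 0.132 (15 pairs) and of differently numbered ones at -0.204 to 0.251 (30 pairs). Such deviations cancel within a day, so the 2 ranges partly mirror each other and cannot decide whether the samples were paired. With a replicate block, 28 genes fell in day 8 against day 0 and the block changed no count of calls by over 1.5 times. Without the day 8 libraries no day 8 comparison can be made.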
